A study of Mus musculus with 4 samples.

Results

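The clustered histone genes were examined in Sun1_KO and Sun1_WT tumours as the 67 rows, of 32285 in the gene tables, whose symbol begins with Hist1h, Hist2h, Hist3h or Hist4h. By family, 6 encode linker histone H1, 18 encode H2A, 18 encode H2B, 12 encode H3 and 13 encode H4. By cluster, 54 lie in Hist1, 10 in Hist2, 2 in Hist3 and 1 in Hist4. The Sun1_KO tumours grew from CT26 cells labelled as a Sun1 knockout, and the Sun1_WT tumours from CT26 cells labelled wild type. CT26 is a mouse colon cancer line, and both kinds of cell were grown under the skin of the right flank in BALB/c hosts, for which the labels give no edit. Tumours were taken on day 14 and dissociated, and single nuclei were profiled for RNA and for open chromatin together. Each genotype gave 1 RNA and 1 accessibility library, 4 libraries in all. How the knockout was made, how many clones and animals were used and how old the animals were is not stated in the labels. With no replicate of either genotype no test between genotypes was made, and the 95% intervals given throughout cover counting error alone.

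Histone proteins package DNA into nucleosomes: H2A, H2B, H3 and H4 form the core, and H1 binds the linker between cores. Most clustered histone genes are replication-dependent, being transcribed in bursts during S phase when new DNA needs packaging. Their mRNAs end in a stem-loop in place of a poly(A) tail, and they are processed at the histone locus body in the nucleus with the help of NPAT, the U7 snRNP and the stem-loop binding protein SLBP. A few clustered genes can also give polyadenylated transcripts outside S phase. Priming on poly(A), as in droplet RNA assays of this kind, counts the stem-loop form poorly, so the levels below are those of the transcripts that were captured.

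The upstream sequences of 5 members are shown because these genes stand for the patterns described below. Hist1h2ae and Hist1h1e had the most unique molecular identifiers (UMIs, counted RNA molecules) in tumour nuclei, Hist1h4i was far lower in Sun1_KO, Hist1h2be was higher, and Hist1h1c was lower at high S-phase scores. Each line gives the 150 bases before an annotated start, from RefSeq promoter windows of build GRCm38.p6, which is the build (mm10) of the deposited files. Capitals mark every match, on either strand, to the TATA box letters TATAAA, to the NF-Y core letters CCAAT, to the octamer letters ATTTGCAT and to the H1 box letters AAACACA. Hist1h2be has windows at both of its annotated starts.
Hist1h2ae, chr13:23571221-23571370, minus strand: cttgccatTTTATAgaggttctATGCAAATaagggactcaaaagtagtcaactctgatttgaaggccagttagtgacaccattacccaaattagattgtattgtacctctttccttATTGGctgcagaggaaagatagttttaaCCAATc
Hist1h4i, chr13:22041363-22041512, minus strand: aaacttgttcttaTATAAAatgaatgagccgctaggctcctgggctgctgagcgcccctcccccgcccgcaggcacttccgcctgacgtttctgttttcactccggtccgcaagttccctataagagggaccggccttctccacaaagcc
Hist1h1e, chr13:23622559-23622708, minus strand: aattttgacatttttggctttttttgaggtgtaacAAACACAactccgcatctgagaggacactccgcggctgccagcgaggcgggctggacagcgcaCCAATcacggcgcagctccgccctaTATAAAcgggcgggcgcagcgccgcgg
Hist1h2be (start inside the gene span), chr13:23585971-23586120, minus strand: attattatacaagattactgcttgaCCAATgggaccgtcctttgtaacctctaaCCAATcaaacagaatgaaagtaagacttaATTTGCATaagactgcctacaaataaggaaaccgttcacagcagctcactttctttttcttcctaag
Hist1h2be (start near the far end of the gene span), chr13:23621095-23621244, minus strand: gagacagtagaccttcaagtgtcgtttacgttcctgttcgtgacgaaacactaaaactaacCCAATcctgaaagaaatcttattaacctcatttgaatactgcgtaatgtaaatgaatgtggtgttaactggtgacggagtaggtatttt
Hist1h1c, chr13:23738657-23738806, plus strand: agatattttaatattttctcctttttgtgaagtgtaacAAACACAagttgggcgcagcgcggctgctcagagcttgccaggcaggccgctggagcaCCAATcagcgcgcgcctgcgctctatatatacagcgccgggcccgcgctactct

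RefSeq windows were matched for 61 of the 66 members that could be placed, 62 windows in all. CCAAT stood on either strand within the 250 bases before the start in 82.3% of member windows, against 33.8% of all 32851 windows in the table. TATAAA was found in 46.8% of member windows and 12.4% of all windows. The octamer, bound by OCT1 at H2B promoters, was found in 22.6% of member windows and 1.60% of all. It stood in 7 of 17 H2B and 7 of 17 H2A windows and in none of the 6 H1, 10 H3 and 12 H4 windows. Many H2A and H2B genes face each other across a short stretch, so their windows can overlap and hold the same match. AAACACA was found in 5 of 6 H1 windows and in none of the H3 and H4 windows, against 6.25% of all windows. CCAAT was in 3 of 12 H4 windows. A match describes these letters and is not shown to be a bound site.

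Tumour nuclei were taken as those with at least 5 UMIs of the tumour markers Hmga2, Igf2bp2, Tead1, Cald1, Met and Fgfr1 and at most 0.1 of marker UMIs from leukocytes. This left 1258 Sun1_KO and 2358 Sun1_WT tumour nuclei of 2172 and 3345 kept, with median depths of 16770.5 and 16983.5 UMIs. Host nuclei, gated on leukocyte markers, numbered 568 in Sun1_KO and 539 in Sun1_WT. Of these, 290 and 330 were macrophage-like, 200 and 167 were lymphocyte-like, and the rest were neither. Another 346 and 448 nuclei fell in neither the tumour nor the host gate. Levels are given as CPM, counts scaled to a common total of UMIs with mitochondrial ones left out. Xist, which the gate did not use, stood at 11.2 CPM in Sun1_KO and 4.16 CPM in Sun1_WT tumour nuclei, and at 1610 CPM or more in each host class. Sun1 stood at 64.2 CPM in Sun1_KO and 105 CPM in Sun1_WT tumour nuclei. Since the labels do not say how the knockout was made, Sun1 RNA that remains does not check the label. Mitochondrial UMIs made up 11.3% of those of Sun1_KO and 6.94% of those of Sun1_WT tumour nuclei. The RNA libraries shared 12 barcodes.

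Captured histone RNA was lower in Sun1_KO tumour nuclei. The 67 genes together gave 271 CPM (265 to 278; 6120 UMIs) in Sun1_KO and 492 CPM (485 to 498; 20563 UMIs) in Sun1_WT tumour nuclei, a log2 ratio of -0.86 (-0.90 to -0.82). Ribosomal protein genes were lower with them, at a summed log2 ratio of -0.68, and scaled by the ribosomal protein total, a choice made after seeing the data, the histone ratio was -0.18; their part in the result was not tested. Every log2 ratio between genotypes is Sun1_KO over Sun1_WT. At least 1 histone UMI was seen in 76.8% (74.4 to 79.1) of Sun1_KO and 90.9% (89.6 to 92.0) of Sun1_WT tumour nuclei. With every nucleus thinned to 5000 UMIs, which left out 29 and 58 shallower nuclei, these shares were 53.3% and 69.0%. At that depth at least 10 histone UMIs were found in 6 of 1229 Sun1_KO nuclei (0.488%, 0.179 to 1.06) and 65 of 2300 Sun1_WT nuclei (2.83%, 2.19 to 3.59). The unthinned share was 49.3% of Sun1_KO and 68.2% of Sun1_WT macrophage-like nuclei, whose median depths were 4924.5 and 4884 UMIs; no class here is known to lack histone RNA, so background from free RNA could not be read off.

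Of the 67 members, 58 had at least 20 UMIs over both libraries in tumour nuclei and 35 of these were at least 1.5-fold lower in Sun1_KO, against 11.1% of 16357 genes tested. At least 1.5-fold higher were 2 members, Hist1h4n and Hist2h2aa1, against 17.1% of genes; none was with TMM, with median-ratio scaling or with mitochondrial UMIs counted in the total. The members' median log2 ratio was -0.77, beside 0.16 for all genes tested. The counting interval lay wholly below 0 for 33 members, wholly above 0 for 4 and across 0 for 21. Intervals were not counted over all genes, so these numbers do not set the members apart from other genes. Another 6 members had 1 to 19 UMIs, and Hist1h2aa, Hist1h2bq and Hist1h4m had none. Scaled by trimmed mean of M values (TMM), the all-gene median was -0.05 and the members' sum -1.07. Of all genes past 1.5-fold, 60.6% were higher without and 36.8% with TMM.

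**Figure D1:**
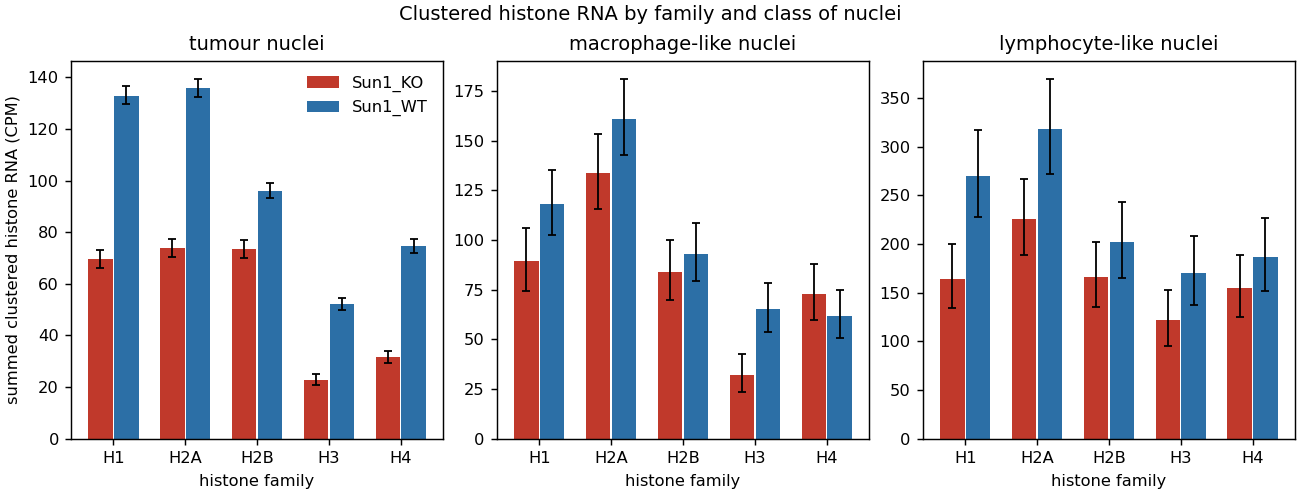
Summed RNA of the members of each histone family in CPM (bars, each 1 library; black lines, 95% counting intervals) in tumour, macrophage-like and lymphocyte-like nuclei of Sun1_KO and Sun1_WT tumours. In tumour nuclei the Sun1_KO bar is the lower one in all 5 families, and the bars lie closest together for H2B.

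The 5 families were all lower in Sun1_KO tumour nuclei, but by different amounts. Core histone H4 stood at 31.6 CPM in Sun1_KO and 74.6 CPM in Sun1_WT (-1.24, -1.36 to -1.12), and H3 at 22.9 CPM in Sun1_KO and 52.2 CPM in Sun1_WT (-1.19). Linker H1 was at 69.6 CPM in Sun1_KO and 133 CPM in Sun1_WT (-0.93), and H2A at 73.8 CPM in Sun1_KO and 136 CPM in Sun1_WT (-0.88). H2B stood nearest to 0, with 73.5 CPM in Sun1_KO and 96.0 CPM in Sun1_WT (-0.39, -0.47 to -0.30). Hist1h2be, itself higher in Sun1_KO (0.38), made up 877 of the 1658 H2B UMIs in Sun1_KO and 1253 of 4018 in Sun1_WT. Sums and medians ranked the families differently: the median over tested members was -0.87 for H2B (15 members) and -0.36 for H4 (12 members), and a few genes carried most of the UMIs of each.

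Among linker histones, Hist1h1e, which encodes H1.4, gave 24.8 CPM (560 UMIs) in Sun1_KO and 44.3 CPM (1852 UMIs) in Sun1_WT tumour nuclei, a log2 ratio of -0.83 (-0.97 to -0.70). Hist1h1b, encoding H1.5, gave 15.3 CPM in Sun1_KO and 35.6 CPM in Sun1_WT (-1.22, -1.40 to -1.05). Hist1h1c, encoding H1.2, gave 17.97 CPM in Sun1_KO and 30.6 CPM in Sun1_WT (-0.77), and Hist1h1d, encoding H1.3, gave 11.49 CPM in Sun1_KO and 22.4 CPM in Sun1_WT (-0.96). The other members of the family, Hist1h1a and the testis gene Hist1h1t, had 3 and 2 UMIs over both libraries. All 4 tested linker genes were thus past 1.5-fold, with log2 ratios between -1.22 and -0.77.

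Of the H2A genes, Hist1h2ae gave 22.4 CPM (504 UMIs) in Sun1_KO and 55.6 CPM (2326 UMIs) in Sun1_WT, a log2 ratio of -1.31 (-1.46 to -1.17), and it was the most counted member. It was seen in 20.3% of Sun1_KO and 32.7% of Sun1_WT tumour nuclei. Hist1h2ab stood at 6.30 CPM in Sun1_KO and 17.1 CPM in Sun1_WT (-1.44), Hist2h2ac at 6.83 CPM in Sun1_KO and 14.5 CPM in Sun1_WT (-1.09), and Hist1h2an at 2.40 CPM in Sun1_KO and 7.51 CPM in Sun1_WT (-1.64). Hist3h2a of the small Hist3 cluster gave 3.64 CPM in Sun1_KO and 8.96 CPM in Sun1_WT (-1.29). Hist1h2af (-0.69) and Hist1h2ak (-0.60) were also lower. In contrast, Hist1h2ap gave 13.8 CPM in Sun1_KO and 10.996 CPM in Sun1_WT (0.33, 0.12 to 0.54), and Hist2h2aa1 gave 7.32 CPM in Sun1_KO and 4.76 CPM in Sun1_WT (0.62, 0.32 to 0.93). Many H2A genes encode the same or nearly the same protein and have near-identical copies, and reads may have been split among them. Hist1h2ap in particular could not be placed, since its older name points to several genes, and Hist2h2aa2, a copy of Hist2h2aa1, had only 1 UMI.

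Of the 15 H2B genes tested, 10 were at least 1.5-fold lower (11.1% of genes) and 0 higher (17.1%). Hist1h2bn had the lowest ratio of all members tested, with 1.33 CPM (30 UMIs) in Sun1_KO and 5.88 CPM (246 UMIs) in Sun1_WT (-2.12, -2.74 to -1.59). Hist1h2bg followed at 1.11 CPM in Sun1_KO and 4.18 CPM in Sun1_WT (-1.89), and Hist1h2bl stood at 1.55 CPM in Sun1_KO and 4.06 CPM in Sun1_WT (-1.37). Hist1h2bc gave 12.1 CPM in Sun1_KO and 24.5 CPM in Sun1_WT (-1.01), and Hist2h2bb 7.54 CPM in Sun1_KO and 10.6 CPM in Sun1_WT (-0.48). Hist1h2be went the other way, with 38.9 CPM (877 UMIs) in Sun1_KO and 30.0 CPM (1253 UMIs) in Sun1_WT, a log2 ratio of 0.38 (0.25 to 0.50). Hist2h2be stood at 3.37 CPM in Sun1_KO and 3.39 CPM in Sun1_WT (-0.01, -0.43 to 0.40), and no difference could be detected at its depth. Without Hist1h2be, the sum over the other 66 members had a log2 ratio of -0.99, a check chosen after its values were seen.

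Of the 12 H3 genes tested, 8 were at least 1.5-fold lower (11.1% of genes) and 0 higher (17.1%). Hist2h3b (0.09), Hist2h3c2 (-0.07) and Hist1h3h (-0.08) stood near 0. All 3 H3 genes among the 25 most counted members were lower in Sun1_KO. Hist1h3c gave 7.10 CPM in Sun1_KO and 22.5 CPM in Sun1_WT (-1.66, -1.91 to -1.42), Hist1h3e 4.52 CPM in Sun1_KO and 8.34 CPM in Sun1_WT (-0.88), and Hist1h3f 2.62 CPM in Sun1_KO and 6.14 CPM in Sun1_WT (-1.22). Of the H4 genes, Hist1h4i gave 9.98 CPM (225 UMIs) in Sun1_KO and 35.5 CPM (1486 UMIs) in Sun1_WT, a log2 ratio of -1.83 (-2.04 to -1.63). It was seen in 12.4% of Sun1_KO and 34.8% of Sun1_WT tumour nuclei. Hist1h4d gave 8.87 CPM in Sun1_KO and 24.7 CPM in Sun1_WT (-1.48). The scarcer Hist1h4n gave 2.40 CPM in Sun1_KO and 1.53 CPM in Sun1_WT (0.65, 0.10 to 1.19), and Hist4h4, alone in its cluster, gave 1.60 CPM in Sun1_KO and 1.20 CPM in Sun1_WT (0.42, -0.24 to 1.06).

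**Figure D2:**
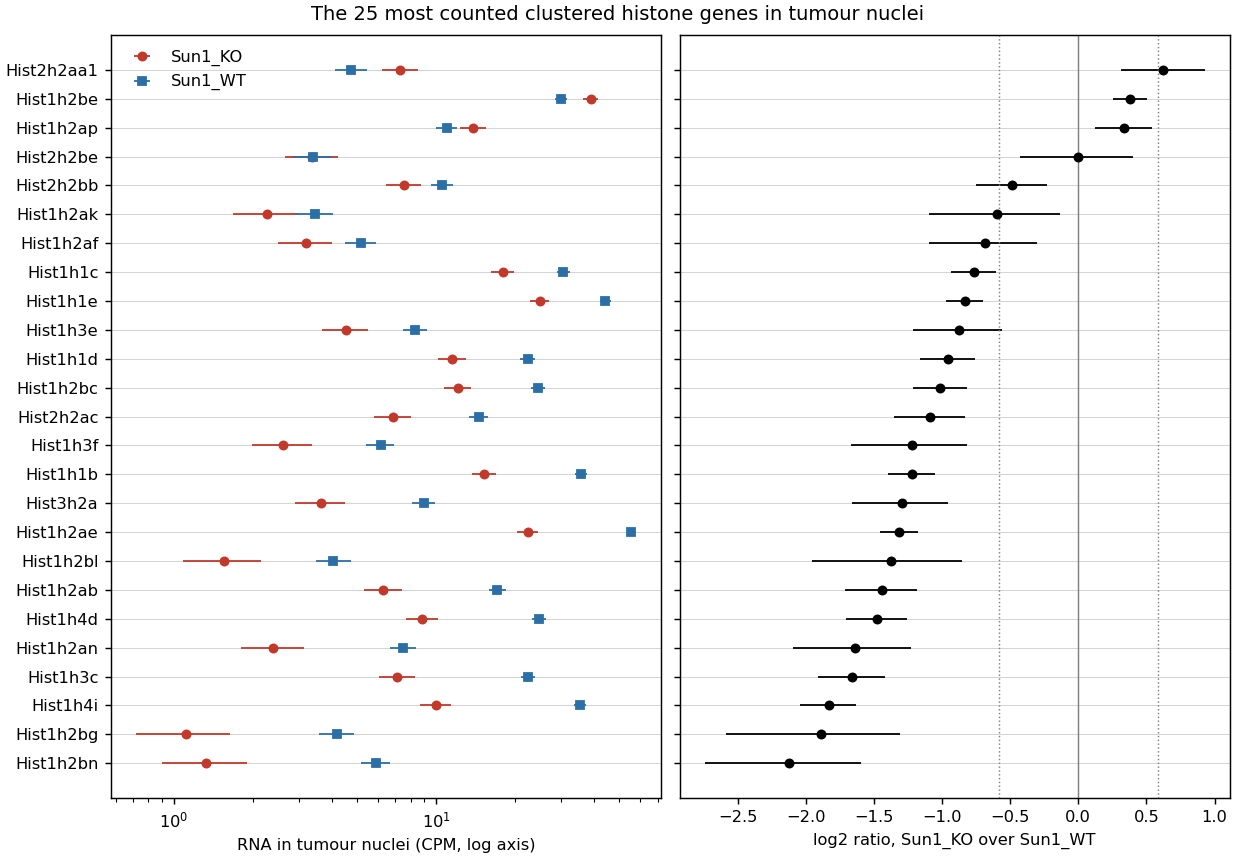
The 25 members with the most UMIs in tumour nuclei. Left, level in CPM on a log axis in Sun1_KO (circles) and Sun1_WT (squares); right, log2 ratio of Sun1_KO over Sun1_WT with dotted lines at 1.5-fold; lines through points are 95% counting intervals of 1 library each. Hist2h2aa1, Hist1h2be and Hist1h2ap lie above 0, Hist2h2be lies at 0, and the other 21 lie below.

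Most clustered histone genes are short and without introns, and 60 of the 66 placed members span at most 1000 bp. These 60 together had a log2 ratio of -1.06 in tumour nuclei, with 202 CPM in Sun1_KO and 421 CPM in Sun1_WT. The 6 longer ones, Hist1h2be, Hist1h2bc, Hist1h2bp, Hist1h2bq, Hist1h2br and Hist2h2be, had a log2 ratio of -0.09, with 55.6 CPM in Sun1_KO and 59.4 CPM in Sun1_WT. Hist1h2be spans 37455 bp, chr13:23583670-23621124, and made up 877 of their 1254 UMIs in Sun1_KO. Leaving out Hist1h2be was a choice made after seeing the data. The other 5 long members then gave 16.7 CPM in Sun1_KO and 29.4 CPM in Sun1_WT (-0.82, -0.99 to -0.65). Hist1h2bc (-1.01) made up 273 of their 377 UMIs in Sun1_KO and 1023 of 1231 in Sun1_WT. The median over the 4 tested was -0.38, with Hist1h2bp at -0.59, Hist1h2br at -0.16 and Hist2h2be at -0.01. Each sum of long members thus rested largely on 1 gene. Across protein-coding genes outside the 67, those up to 1000 bp long had a median log2 ratio of -0.25 (72 tested, 17 past 1.5-fold lower and 20 higher), and those over 50000 bp a median of 0.32 (3963 tested); the part that gene length plays in the histone difference was not tested.

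The members were also summed by position along the genome. With members more than 100 kb apart placed in separate groups, the Hist1 cluster on chromosome 13 fell into 4 groups, of which the last, Hist1h2aa and Hist1h2ba, had 1 UMI in all. The first, chr13:21715711-21837530 with 17 members, gave 32.7 CPM in Sun1_KO and 69.2 CPM in Sun1_WT tumour nuclei (-1.08). The second, chr13:22035122-22043658 with 5 members including Hist1h4i, gave 12.02 CPM in Sun1_KO and 39.6 CPM in Sun1_WT (-1.72). The third, chr13:23531044-23764412 with 29 members, gave 177 CPM in Sun1_KO and 320 CPM in Sun1_WT (-0.86). Hist2 on chromosome 3 gave 31.1 CPM in Sun1_KO and 41.5 CPM in Sun1_WT (-0.42), and Hist3 on chromosome 11 gave 3.68 CPM in Sun1_KO and 9.04 CPM in Sun1_WT (-1.30). Of the 271 UMIs of the second group in Sun1_KO, 225 were Hist1h4i, as were 1486 of 1657 in Sun1_WT. Hist3h2a made up 82 of the 83 UMIs of Hist3 in Sun1_KO and 375 of 378 in Sun1_WT. The ratios of these groups thus rested largely on 1 gene each, and a part of position was not tested.

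Histone RNA was then read against replication. An S score was made for each tumour nucleus from the UMIs of 40 S-phase genes, none of them a histone, after thinning to 5000 UMIs, and the nuclei of both libraries were cut into 5 bins at every 20th percentile. Bins are ranges of a score: 320 of 1229 Sun1_KO and 739 of 2300 Sun1_WT nuclei lay within 1 UMI of the lowest boundary. From bin 1 to bin 5 the summed histone level was 146, 141, 222, 320 and 388 CPM in Sun1_KO, and 249, 276, 336, 679 and 667 CPM in Sun1_WT. It was higher in bin 5 than in bin 1 by a log2 ratio of 1.41 (1.23 to 1.59) in Sun1_KO and 1.42 (1.33 to 1.51) in Sun1_WT. Sun1_KO was the lower in every bin: the log2 ratio between them was -0.77, -0.97, -0.60, -1.08 and -0.78 from bin 1 to bin 5. Bin 1 held 12.04% of Sun1_KO and 15.5% of Sun1_WT nuclei and bin 5 held 20.3% and 20.1%, and weighting the Sun1_KO bins to the Sun1_WT shares gave a log2 ratio of -0.89. Median depth was 12843.5 UMIs in Sun1_KO and 13294 in Sun1_WT in bin 1, and 20289.5 and 22262 in bin 5.

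The members did not all follow the S score in the same direction. In Sun1_KO, 23 members had at least 20 UMIs over bins 1 and 5, and 18 were at least 1.5-fold higher in bin 5 (14.8% of genes tested) and 3 lower (10.8%). In Sun1_WT, 39 members were measured, 34 higher (14.6% of genes) and 4 lower (14.3%). The minimum was on the sum of both bins, so a member could pass through bin 5 alone. Hist1h2af, for example, had 0 UMIs in bin 1 and 27 in bin 5 of Sun1_KO. These counts are therefore no test of a relation to the S score. Hist1h2ae, the most counted member, stood at 1.57 CPM (3 UMIs) in bin 1 and 39.2 CPM in bin 5 of Sun1_KO, and at 14.3 and 90.0 CPM in Sun1_WT. Its log2 ratio of bin 5 over bin 1 was 4.42 (3.07 to 6.93) in Sun1_KO and 2.65 (2.30 to 3.04) in Sun1_WT. Hist1h1b was also higher in bin 5, with 2.10 CPM (4 UMIs) in bin 1 and 24.97 CPM in bin 5 of Sun1_KO, and 4.26 and 58.7 CPM in Sun1_WT. Its log2 ratio was 3.41 (2.18 to 5.47) in Sun1_KO and 3.75 (3.14 to 4.51) in Sun1_WT. Hist1h2be was the higher in Sun1_KO in every bin, at 20.4 CPM in bin 1 and 51.2 CPM in bin 5, against 13.4 and 40.5 CPM in Sun1_WT.

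The members lower at high S score in both libraries were Hist1h2bc, Hist3h2a and Hist1h1c, named after their values were seen. Hist1h2bc stood at 26.2, 18.9, 14.0, 8.83 and 4.67 CPM from bin 1 to bin 5 in Sun1_KO, and at 52.4, 45.4, 28.6, 11.3 and 8.81 CPM in Sun1_WT. Its log2 ratio of bin 5 over bin 1 was -2.47 (-3.27 to -1.75) in Sun1_KO and -2.57 (-2.94 to -2.22) in Sun1_WT. Hist3h2a had log2 ratios of -1.77 in Sun1_KO and -1.69 in Sun1_WT, and Hist1h1c -1.11 and -0.99. Hist1h4i was higher in bin 5, by less than the sum: it stood at 9.44 CPM in bin 1 and 12.4 CPM in bin 5 of Sun1_KO (0.36, -0.39 to 1.24), and at 28.1 and 43.6 CPM in Sun1_WT (0.63, 0.35 to 0.93). These 4 genes and Hist1h2ae and Hist1h1b were lower in Sun1_KO in every bin, unlike Hist1h2be.

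**Figure D3:**
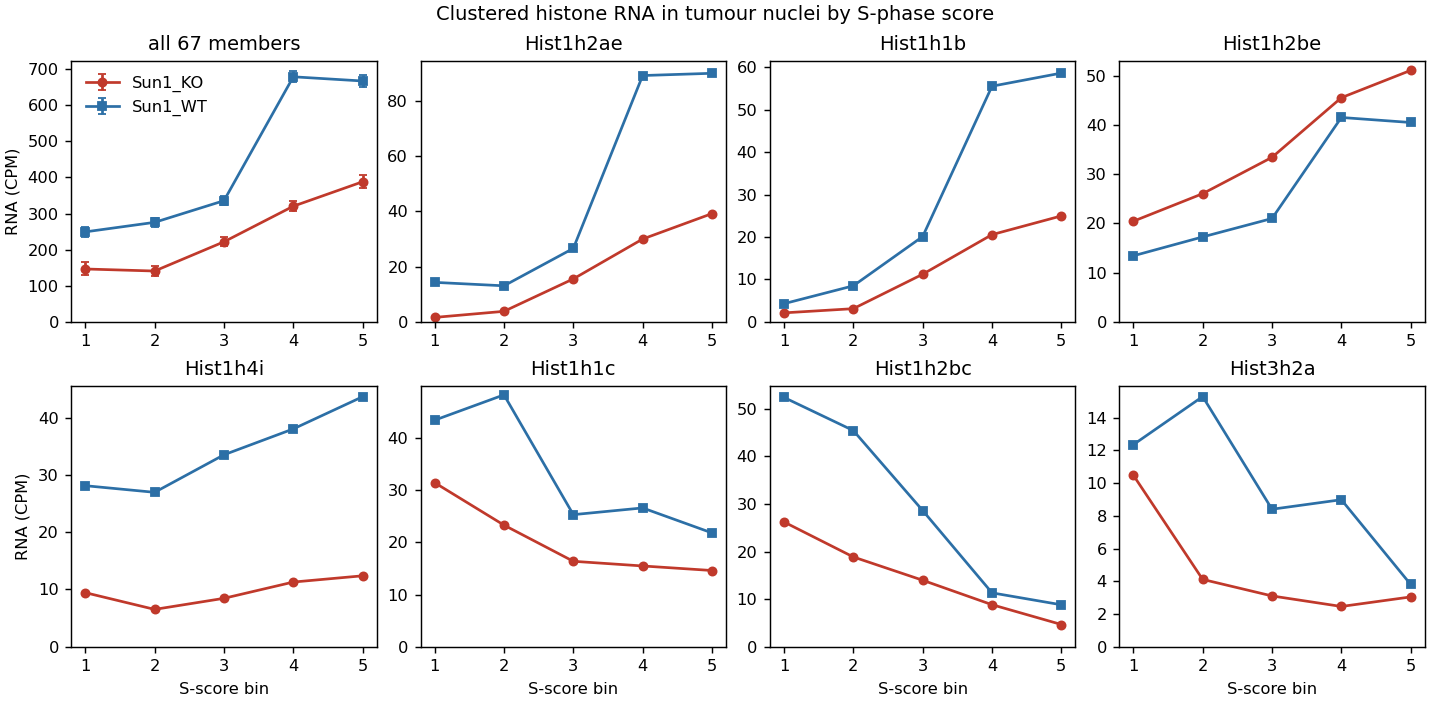
Level in CPM (vertical axes start at 0) by S-score bin, from low (1) to high (5), in tumour nuclei of Sun1_KO (circles) and Sun1_WT (squares) for the sum of all members, with 95% counting intervals, and for 7 single members. The sum, Hist1h2ae, Hist1h1b and Hist1h2be are higher in the upper bins, Hist1h4i is higher there by less, and Hist1h1c, Hist1h2bc and Hist3h2a are lower there; Sun1_KO lies below Sun1_WT in all panels but Hist1h2be.

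The relation to the S score differed with the G2/M score, the UMIs of 50 G2/M genes after the same thinning. Split at the medians of both scores (6 and 11 UMIs), nuclei high in both had 390 histone CPM in Sun1_KO and 746 CPM in Sun1_WT. Nuclei high in S and low in G2/M had 91.4 CPM in Sun1_KO and 140 CPM in Sun1_WT, below those low in both, at 118 CPM in Sun1_KO and 234 CPM in Sun1_WT. Nuclei low in S and high in G2/M had 255 CPM in Sun1_KO and 428 CPM in Sun1_WT. Among nuclei in the lower part of the G2/M score, the direction turned: the log2 ratio of bin 5 over bin 1 was -0.29 in Sun1_KO and -0.76 in Sun1_WT. Hist1h2ae gave 37.8 CPM in Sun1_KO and 98.1 CPM in Sun1_WT nuclei high in both scores, and 4.25 CPM in Sun1_KO and 11.2 CPM in Sun1_WT in nuclei high in S only. Hist1h2bc gave 7.64 CPM in Sun1_KO and 10.2 CPM in Sun1_WT nuclei high in both, and 20.6 CPM in Sun1_KO and 45.7 CPM in Sun1_WT in nuclei low in both. Sun1_KO was the lower in all 4 combinations, by log2 ratios between -0.61 and -0.99. The sets differed in depth, with medians of 22282 UMIs in Sun1_KO and 23917 in Sun1_WT for nuclei high in both, and 16744 and 17605 for nuclei high in S only, and the part of depth was not tested.

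**Figure D4:**
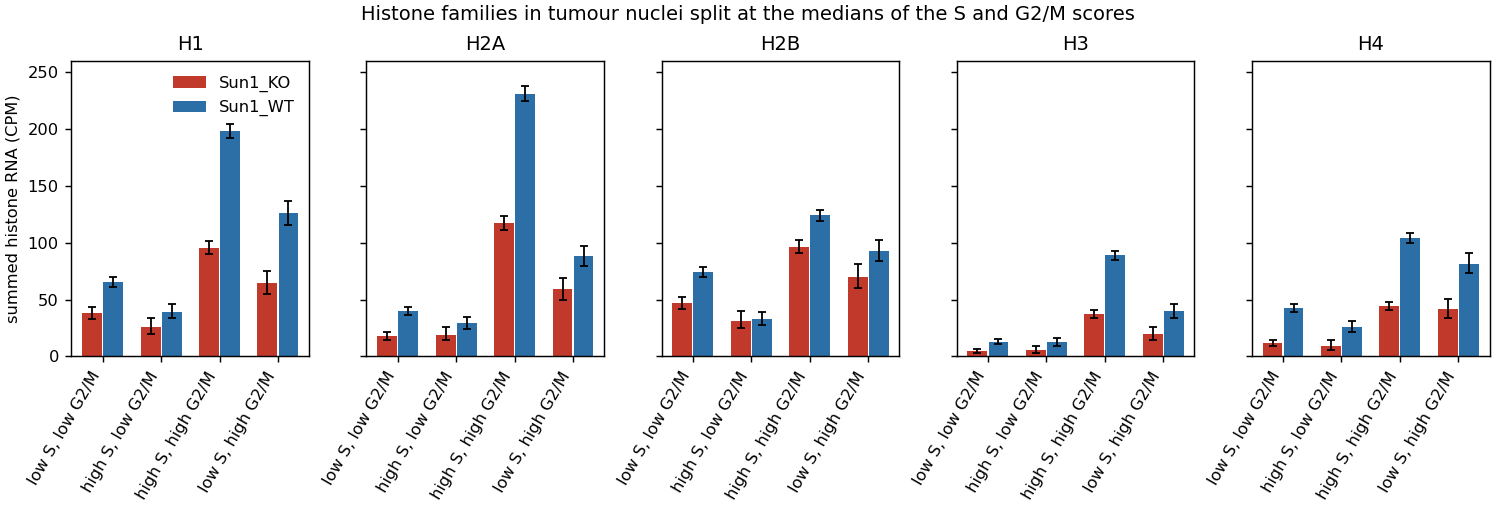
Summed RNA of each histone family in CPM (bars; black lines, 95% counting intervals of 1 library each) in tumour nuclei of Sun1_KO and Sun1_WT split at the median S and G2/M scores. In every family and in both genotypes the highest bar is that of nuclei high in both scores, and in H1, H2B and H4 nuclei high in S only lie below those low in both.

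Host nuclei, for which the labels give no edit, also had a lower sum of captured histone RNA in the Sun1_KO library. Macrophage-like nuclei gave 411 CPM (379 to 445; 604 UMIs) in Sun1_KO and 499 CPM (467 to 533; 880 UMIs) in Sun1_WT, a log2 ratio of -0.28 (-0.43 to -0.13), or -0.54 with nuclei thinned to 2000 UMIs. Lymphocyte-like nuclei gave 832 CPM (761 to 908; 506 UMIs) in Sun1_KO and 1147 CPM (1059 to 1241; 620 UMIs) in Sun1_WT (-0.46, -0.63 to -0.29). Families differed. H4, furthest below 0 in tumour nuclei, stood at 72.9 CPM in Sun1_KO and 61.8 CPM in Sun1_WT macrophage-like nuclei (0.24, -0.16 to 0.63). The other families there ranged from -1.03 for H3 to -0.15 for H2B (-0.50 to 0.19). In lymphocyte-like nuclei they ranged from -0.72 for H1 to -0.27 for H4 (-0.69 to 0.15). Of 21 members tested in macrophage-like nuclei, 8 were at least 1.5-fold lower (8.64% of genes) and 3 higher (10.4%). Of 19 in lymphocyte-like nuclei, 8 were lower (10.7%) and 3 higher (15.3%). Hist1h2ae was lower in both, at 42.9 CPM in Sun1_KO and 60.1 CPM in Sun1_WT macrophage-like nuclei (-0.48), and 54.3 CPM in Sun1_KO and 126 CPM in Sun1_WT in lymphocyte-like nuclei (-1.20). Hist1h1e stood at 26.6 CPM in Sun1_KO and 42.0 CPM in Sun1_WT macrophage-like nuclei (-0.65) and at 54.3 CPM in Sun1_KO and 81.4 CPM in Sun1_WT in lymphocyte-like ones (-0.58, -1.28 to 0.10). The members higher past 1.5-fold, named after their values were seen, were Hist1h4n (1.76, 0.32 to 3.66), Hist1h2ap (1.21, 0.46 to 2.04) and Hist1h2be (0.83, -0.12 to 1.86) in macrophage-like nuclei. In lymphocyte-like nuclei they were Hist2h2aa1 (1.20, 0.09 to 2.54), Hist1h3e (1.05, -0.23 to 2.62) and Hist1h4n (0.75, -0.25 to 1.86). Whether the difference was larger in tumour than in host nuclei was not tested, since each rests on 1 library a genotype.

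Histone RNA per UMI was lower in tumour than in lymphocyte-like nuclei of both libraries. Within Sun1_KO, tumour nuclei gave 271 CPM and lymphocyte-like nuclei 832 CPM (log2 ratio of tumour over lymphocyte-like -1.62, -1.75 to -1.48), and within Sun1_WT 492 CPM in tumour and 1147 CPM in lymphocyte-like nuclei (-1.22, -1.34 to -1.10). Against macrophage-like nuclei the log2 ratio was -0.60 (-0.72 to -0.48) in Sun1_KO and -0.02 (-0.12 to 0.08) in Sun1_WT. The lymphocyte-like classes were small and shallow, with median depths of 2831 UMIs in Sun1_KO and 2861 in Sun1_WT. In macrophage-like nuclei with at least 1 S-list UMI at 2000 UMIs, the histone level was 474 CPM in Sun1_KO and 562 CPM in Sun1_WT, and 164 CPM in Sun1_KO and 265 CPM in Sun1_WT in those with none. Lymphocyte-like nuclei did not share 1 direction: those with at least 1 S-list UMI had 864 CPM (782 to 951) in Sun1_KO and 1283 CPM (1179 to 1393) in Sun1_WT, and those with none, only 10 and 11 nuclei, had 1414 CPM (1046 to 1870) in Sun1_KO and 585 CPM (367 to 886) in Sun1_WT.

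The chromatin over the genes did not show a difference of that size. Peaks of the accessibility libraries were merged where they overlapped, and 67 shared regions lay within 1 kb of 61 of the 66 placed members, many serving a pair of neighbours. In tumour nuclei these regions held 1665 CPM of accessibility counts in Sun1_KO and 1720 CPM in Sun1_WT, a log2 ratio of -0.05 (-0.05 to -0.04). No region was at least 1.5-fold lower or higher, against 5.37% of 113774 regions lower and 7.92% higher, and single regions ranged from -0.49 to 0.40. About 75.0% of recorded values were even numbers in the Sun1_KO and 75.5% in the Sun1_WT library, so counts are not independent and these intervals are too narrow. The region by Hist1h4d held 31.96 CPM in Sun1_KO and 33.1 CPM in Sun1_WT (-0.05), where its RNA differed by -1.48, and the 2 by Hist1h3c 62.2 CPM in Sun1_KO and 64.1 CPM in Sun1_WT (-0.04), where its RNA differed by -1.66. The 6 regions along Hist1h2be held 104 CPM in Sun1_KO and 105 CPM in Sun1_WT (-0.01), where its RNA stood at 0.38. Of these 6, the 2 shared with Hist1h1e held 67.6 CPM in Sun1_KO and 67.8 CPM in Sun1_WT, where Hist1h1e RNA differed by -0.83. The region shared by Hist1h2ae and Hist1h2bg held 34.9 CPM in Sun1_KO and 40.3 CPM in Sun1_WT (-0.21), where their RNA differed by -1.31 and -1.89. In macrophage-like nuclei 2 of 66 regions tested were higher (9.3% of all regions) and 3 lower (12.0%), with a summed log2 ratio of 0.03. In lymphocyte-like nuclei 0 of 67 were higher (8.18%) and 4 lower (19.4%), with 0.09.

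As sums over position groups, both readouts were lowest in the second Hist1 group, where Hist1h4i made up most of the RNA. The 4 regions of this group held 55.3 CPM of accessibility counts in Sun1_KO and 74.5 CPM in Sun1_WT tumour nuclei, a log2 ratio of -0.43. The 44 regions within 250 kb that lie over no member had a median of 0.05. The region shared by Hist1h4i and Hist1h2ag, chr13:22040817-22041641, held 16.7 CPM in Sun1_KO and 22.9 CPM in Sun1_WT (-0.46). In macrophage-like nuclei the same group gave 149 accessibility CPM in Sun1_KO and 127 in Sun1_WT (0.23), and its RNA 19.7 CPM in Sun1_KO and 22.7 CPM in Sun1_WT (-0.20). The first and the third group had accessibility ratios of -0.11 and -0.09. Single regions in them came near the second group: -0.41 for 1 of the 2 by Hist1h3i in the first, the other being at 0.01. In the third, the region shared by Hist1h2bf and Hist1h2ad was at -0.41. Hist2 was the more open in Sun1_KO, with 357 CPM against 319 CPM in Sun1_WT (0.16), as were its 85 flanking regions (median 0.16), while its RNA was lower. By S-score bin, accessibility over the members was 1461, 1503, 1706, 1754 and 1671 CPM in Sun1_KO and 1523, 1549, 1728, 1897 and 1744 CPM in Sun1_WT, a far smaller span than that of the RNA.

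**Figure D5:**
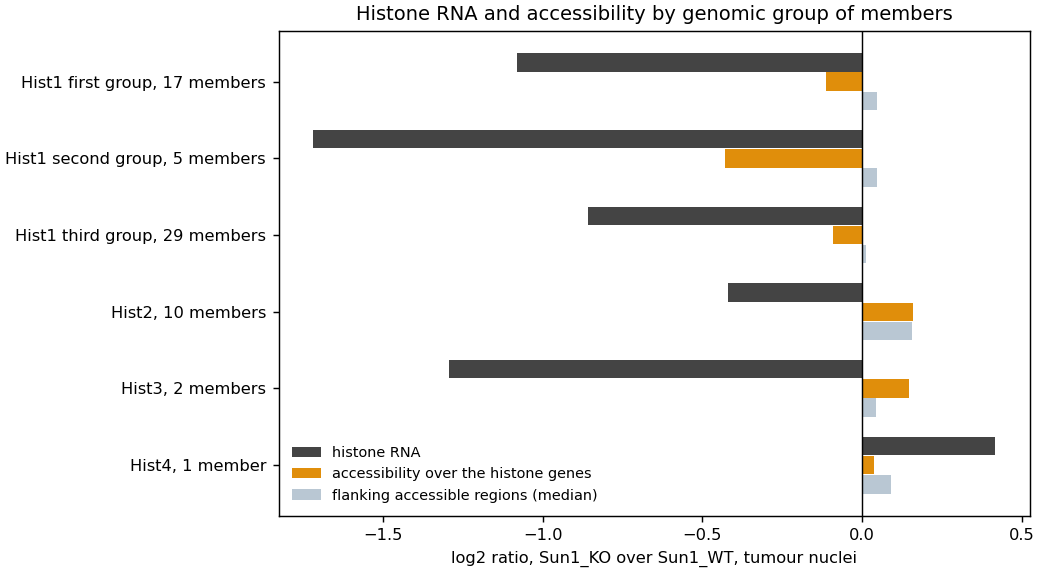
Log2 ratio of Sun1_KO over Sun1_WT in tumour nuclei for the members of each genomic group, as summed RNA (dark), summed accessibility within 1 kb of the genes (orange) and the median of flanking regions within 250 kb that lie over no member (light). RNA bars reach -1.72 in the second Hist1 group, where accessibility is at -0.43, and accessibility lies between -0.11 and 0.16 in the other groups.

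Other histone and histone-linked genes gave the setting. Variant histones are made outside S phase too, and mostly from polyadenylated mRNA. Past 1.5-fold, 1 of 10 tested was higher (17.1% of genes) and 1 lower (11.1%); their median was -0.22 and their sum 1800 CPM in Sun1_KO and 2373 CPM in Sun1_WT (-0.40). H2afz, encoding H2A.Z, stood at 340 CPM in Sun1_KO and 544 CPM in Sun1_WT (-0.68), and H3f3a, encoding H3.3, at 204 CPM in Sun1_KO and 289 CPM in Sun1_WT (-0.50). H1fx was higher, at 27.5 CPM in Sun1_KO and 16.7 CPM in Sun1_WT (0.72), as was H2afy, encoding macroH2A, at 150 CPM in Sun1_KO and 127 CPM in Sun1_WT (0.24). Of 25 genes of histone RNA processing and its locus body, 2 were higher and 1 lower past 1.5-fold, with a median of 0.02, or -0.19 with TMM scaling. Slbp stood at 93.1 CPM in Sun1_KO and 98.9 CPM in Sun1_WT (-0.09), Npat at 77.3 CPM in Sun1_KO and 68.7 CPM in Sun1_WT (0.17), and Lsm10, a subunit specific to the U7 snRNP, at 5.41 CPM in Sun1_KO and 11.6 CPM in Sun1_WT (-1.10). Cdk2, whose kinase phosphorylates NPAT, stood at 36.3 CPM in Sun1_KO and 23.52 CPM in Sun1_WT (0.63), and Gon4l at 88.3 CPM in Sun1_KO and 61.0 CPM in Sun1_WT (0.53). Of 28 histone chaperone genes, 1 was higher and 1 lower, with a median of 0.13, or -0.08 with TMM scaling. Tonsl (0.64) and Hira (0.52) were the highest, and Dnajc9 (-0.73) and Dek (-0.47) the lowest.

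The cytosolic ribosomal protein genes, short and highly expressed, moved with the histone genes. Of 74, 50 were at least 1.5-fold lower in Sun1_KO tumour nuclei (11.1% of genes) and none higher (17.1%), with a median of -0.73, and they summed to 76061 CPM in Sun1_KO and 121550 CPM in Sun1_WT (-0.68). Their summed log2 ratio was -0.42 in macrophage-like and -0.47 in lymphocyte-like nuclei. The S list and the G2/M list did not move in this way, with sums of 2525 CPM in Sun1_KO and 2496 CPM in Sun1_WT for S (0.02) and of 7132 CPM in Sun1_KO and 7219 CPM in Sun1_WT for G2/M (-0.02). The part of RNA capture, of mitochondrial share or of RNA quality in the histone difference was not tested, and with 1 library a genotype it cannot be told apart from genotype.

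The authors' deposited table, a DESeq2 comparison that lists 10156 genes, held 15 of the 67 members. Of the 15 in the authors' deposited table, 11 were above 0 and 4 below, with a median log2 fold change of 0.25, where 92.9% of all listed genes were above 0 and the all-gene median was 0.59. The authors' deposited table gave Hist1h2be a log2 fold change of 0.84 (adjusted p = 5.77e-08) and Hist1h2ap 0.71 (adjusted p = 0.0391), from DESeq2, the only members with an adjusted p under 0.05. How many of all genes in the authors' deposited table passed that threshold was not counted. Of all its genes, 50.3% were at least 1.5-fold higher, so these 2 members are not shown to stand out. At the other end of the authors' deposited table stood Hist1h4i, at -0.21 (adjusted p = 0.122, DESeq2). The header names no direction, and Sun1 stood at -0.35 in the authors' deposited table. Of the 15 members, 13 lay under the all-gene median of the authors' deposited table. Which nuclei entered the authors' deposited table is not stated, its all-gene median lies far from that of the CPM ratios above, and with 1 library a genotype its p-values do not measure the spread between tumours.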

How the data were processed

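Counts of UMIs per gene and nucleus and counts per accessibility peak and nucleus were deposited by the authors. The submitters' processing notes name build mm10 and, as tools, Signac, Seurat, Cell Ranger ARC, Cell Ranger and FastQC, without versions or order. In the authors' deposited table, baseMean is a normalized signal, fold changes are log2 values, the Wald statistic is a score, and p-values and adjusted p-values come from DESeq2, per the file headers. The members and lists were chosen with earlier results of these data known.

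Nuclei were kept from 500 UMIs and 300 genes upwards where mitochondrial UMIs did not pass 20%, 2172 of 2404 in Sun1_KO and 3345 of 3455 in Sun1_WT. Total UMIs were 35471291 and 53707675. No doublet caller was run: nuclei with markers of both classes stayed out of the gates. Host classes needed at least 5 leukocyte UMIs, at most 0.1 from tumour markers, and 0.8 of macrophage plus lymphocyte UMIs from one side. UMIs were summed by class and scaled to the non-mitochondrial total. Log2 ratios of genes added 0.5 to each count and needed 20 UMIs over both libraries. Intervals were exact Poisson, exact binomial (Clopper-Pearson) or exact conditional binomial. The ratio and interval code was checked on simulated counts. The members with at least 100 UMIs in tumour nuclei, at most 25, were named, with 2 highest and 2 lowest genes of each list with at least 100 UMIs; others named were chosen after their values were seen. Positions and promoter windows came from RefSeq tables of GRCm38.p6, matched through older symbols. Python 3.11.15, numpy 2.4.6, scipy 1.17.1 and matplotlib 3.10.9 were used, and edgeR 4.0.16 in R 4.3.3 for TMM factors only. Alternatives were other scalings, gates, depth filters, thinning, minimum counts, thresholds, score settings and peak overlaps.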

Additional observations from a re-analysis of the deposited data

Results flagged for a closer look

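Accessibility over the histone genes had opposite signs in tumour and host nuclei, with counting intervals that did not meet. Its log2 ratio of Sun1_KO over Sun1_WT was -0.0469 in tumour nuclei, 0.0345 in macrophage-like nuclei and 0.0921 in lymphocyte-like nuclei. The difference between classes was not tested, each value rests on 1 library a genotype, and the intervals are too narrow because most accessibility counts are even numbers.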

How the results depend on the processing

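The lower histone sum in Sun1_KO tumour nuclei kept its direction under all 12 alternatives. It was -1.07 with either TMM or median-ratio scaling, -0.93 with mitochondrial UMIs counted in the total, -0.76 thinned to 5000 UMIs, -0.81 without the most counted member and -0.90 for Hist1 alone. The alternatives added after seeing the data gave -0.99 without Hist1h2be and -0.18 scaled by ribosomal protein genes. The sum of the members longer than 1000 bp was -0.09, and -0.82 without Hist1h2be. Members at least 1.5-fold lower numbered 25 to 42 under the other scalings, gates, filters and thinning, and 21 were past 2-fold. The count over all genes moved as well. With TMM 42 members and 2922 genes were lower, thinned 25 members and 1437 genes, and in the main setting 35 members and 1816 genes. Genes higher numbered 1702 with TMM and 2798 in the main setting. Genes past 2-fold were not counted. Members higher numbered 0 under TMM, median-ratio and mitochondria-inclusive scaling and past 2-fold, and 5 with a minimum of 1 UMI. Under TMM and under median-ratio scaling alike, the median was -0.43 for variant histones, -0.19 for RNA processing genes and -0.94 for ribosomal protein genes, the last -0.80 with mitochondrial UMIs counted. The median of chaperones turned to -0.0788 with TMM and -0.0780 with median-ratio scaling, and was 0.0629 with mitochondrial UMIs counted. The macrophage-like sum was -0.54 thinned to 2000 UMIs, and tumour over host in Sun1_WT -0.51. Bin 5 over bin 1 was 1.30 without the most counted member in Sun1_WT. It turned to -0.29 in Sun1_KO and -0.76 in Sun1_WT within the lower part of the G2/M score, and the cause was not tested. The ratio between genotypes was -1.22 in bin 2 and -0.86 in bin 5 with the score taken from full counts, and -1.15 in bin 4 with mitochondrial UMIs counted. Shares of tumour nuclei with a histone UMI were 53.3% in Sun1_KO and 69.0% in Sun1_WT after thinning. Accessibility was -0.11 with regions binarised per nucleus. All 25 named members kept their direction with the same 3 scalings and the 3000 UMI minimum, and 24 of 25 with the other gates and thinning. No paired analysis was possible because each genotype had 1 library of each kind, and for the same reason no library could be left out. Depth limited the 21 members whose interval spans 0 and the 9 with fewer than 20 UMIs.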
